A study of Mus musculus with 36 samples.

Results

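Hepatic mRNA of 10 genes of glycerolipid synthesis was measured on Agilent whole-mouse genome microarrays: Gpam, Agpat1, Agpat2, Agpat3, Lpin1, Lpin2, Lpin3, Dgat1, Dgat2 and Mogat1. The genes were chosen by name, as every probe whose gene name in the scanner files, or whose current symbol by accession, is on this list. They are 10 of the 19750 genes named on the array. The array holds 24 of their probes, and 22 of these are among the 21781 probes of the authors' processed table, in which all 10 genes have at least 1 probe.

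The livers came from 36 adult male mice, C57BL/6J per the labels and C57BL/6JOlaHsd per the study's methods, which were 10 weeks old at entry and fasted for at least 2 hours before they were killed. All mice received a mild-high-fat diet, in which fat supplied 30% of the energy, during an adaptation of 3 weeks per the labels. The baseline group (t=0, 12 mice) was killed after this adaptation, the control group (HF, 12 mice) after 12 further weeks on the same diet, and the quercetin group (HF-Q, 12 mice) after 12 weeks on the diet with 0.33% (w/w) quercetin, a plant flavonoid. A difference from the baseline group is therefore a difference in age and time on the diet as well, and no group was fed a normal-fat diet. Each mouse was hybridised on 1 array in Cy5 against a common Cy3 pool of all samples. The levels below are the authors' normalised log2 Cy5 signals, adjusted spot by spot for the signal of this pool and set on a common array median. A level is thus a signal and not a ratio to the pool, and 1 unit is a doubling.

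Triacylglycerol and most phospholipids are built on glycerol 3-phosphate. Glycerol-3-phosphate acyltransferases such as the mitochondrial enzyme Gpam add the first fatty acid, and the Agpat enzymes add the second to give phosphatidic acid. Lipins remove the phosphate to give diacylglycerol, which Dgat1 and Dgat2 acylate to triacylglycerol, while monoacylglycerol acyltransferases such as Mogat1 reach diacylglycerol by a separate route. In liver, Lpin1 is known to respond to fasting and glucocorticoids and also acts as a nuclear coactivator of fatty acid oxidation genes, and Lpin2 is a lipin of hepatocytes.

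Lpin1 and Lpin2 were the members with the largest differences between the groups. Lpin1 was lower in the control group than at baseline, at an adjusted p close to the threshold of 0.05 used below. Of the 4 Lpin2 probes, 1 was lower in the control group than in both the baseline and the quercetin group. Agpat1 was slightly lower in the control group than at baseline by 1 of its 2 probes. A gene was represented by its probe with the highest mean signal, and a probe counted as called when its adjusted p was under 0.05 in a limma fit of both groups, with Benjamini-Hochberg adjustment over all 21781 probes. By this measure 0 of the 10 genes were called for quercetin against control, where 4 had an unadjusted p under 0.05 and the methods' t-test also called 0. Over all probes 2.36% were called in this comparison, 1.49% higher and 0.863% lower in the quercetin group. Between the control and the baseline group 2 of 10 genes were called, both lower, with 3 at an unadjusted p under 0.05. The methods' t-test called 1 of the 10 here, Agpat1, and not Lpin1. Over all probes 21.3% were called in this comparison, 10.9% higher and 10.4% lower. Between the quercetin and the baseline group 0 of 10 were called, with 3 at an unadjusted p under 0.05 and 0 by the methods' t-test, beside 11.9% of all probes, 6.62% higher and 5.3% lower. The shares of called genes were thus near or below the shares among all probes. The median log2 fold change of the 10 genes was -0.02, -0.06 and -0.07 in these comparisons, and that of all probes was 0.013, -0.0047 and 0.014. The direction of the calls over all probes depended on the processing. Of those for quercetin against control 63.4% were higher in the quercetin group. After background correction (normexp) of the scanner intensities and centring of each array on its median log ratio, 32.5% were. Between the control and the baseline group 51.3% were higher, and 85% with that processing, which moved the median of all probes to 0.096. Between the quercetin and the baseline group 55.5% were higher, and 34.9% with the scanner software's processed signals.

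**Figure D1:**
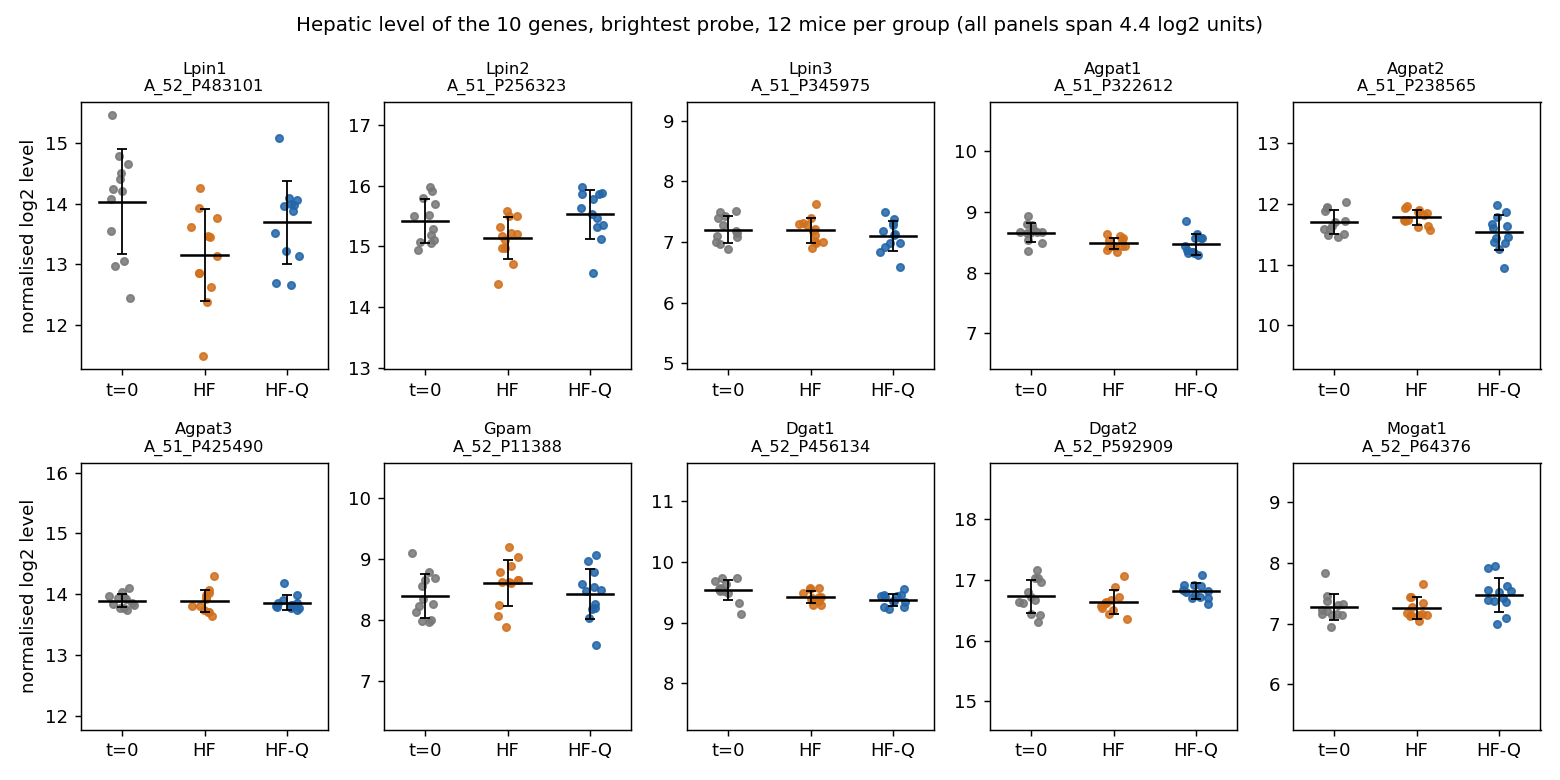
Normalised log2 level (y axis) of each gene by its brightest probe in the baseline (t=0), control (HF) and quercetin (HF-Q) group, with 1 point per mouse, the mean as a line and the SD as an error bar (n = 12 per group). Each panel spans the same number of log2 units, and Lpin1 shows the widest scatter between mice, from 11.49 to 15.46.

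Facts that concern the arrays as a whole bear on these values. The 36 arrays lay on 9 slides of 4, and every slide held mice of all 3 groups. On the array of quercetin mouse 2, 96.7% of the spots were well above background in Cy5, against 58.1% to 66.3% on the other 11 arrays of that group. Control mouse 5 had a mean level of 19.98 over 4 genes of the exocrine pancreas, and the next highest mouse had 9.85, so values without that mouse are given where a call changes. The 6 hepatocyte markers were all in the processed table, at mean levels of 16.79 to 17.45 over all mice. In bulk liver RNA, fewer cells of a type and less RNA per cell cannot be told apart.

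Lpin1 lies on chr12 and was measured by 4 probes within chr12:16561989-16562942 (build mm8). Its brightest probe, A_52_P483101 at chr12:16562803-16562862, read 208 to 337 times the local background in the group means. The level was 12.45 in the lowest, 14.22 in the median and 15.46 in the highest of the 12 baseline mice. The control mice had a lowest level of 11.49, a median of 13.30 and a highest of 14.26. The quercetin mice had a lowest level of 12.67, a median of 13.93 and a highest of 15.08. The 3 groups overlapped, yet 11 of 12 control mice lay below the baseline median, and 8 of 12 quercetin mice lay above the control median.

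The mean level of Lpin1 fell from 14.03 ± 0.86 (SD, n = 12) at baseline to 13.16 ± 0.76 (SD, n = 12) in the control group. This is a log2 fold change of -0.88 (SE 0.30, adjusted p = 0.0390, limma), or a 1.83-fold lower level. All 4 probes were called in this comparison, at -0.80 to -0.88, and their levels ran in parallel between mice (r = 0.976 to 0.998 over 36 mice after subtraction of the group means). The control mice were lower than the baseline mice within 8 of 9 slides, with a median within-slide difference of -1.0. In the quercetin group the level was 13.69 ± 0.68 (SD, n = 12), between the other two. Neither the difference of 0.54 from the control group (SE 0.27, 95% CI -0.02 to 1.09, adjusted p = 0.340, limma) nor that of -0.34 from the baseline group (SE 0.29, 95% CI -0.93 to 0.25, adjusted p = 0.492) passed the threshold.

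The call of Lpin1 between the control and the baseline group lay close to the threshold. It was lost in 14 of the 24 fits that left out 1 array, namely baseline mouse 5, 6, 7, 8, 9, 10, 11 or 12, or control mouse 1, 2, 3, 4, 5 or 11, where the adjusted p reached at most 0.0717. Over all 24 fits the fold change lay between -1.02 and -0.72, and over the 14 between -0.87 and -0.72. Without control mouse 5, the mouse with the pancreatic mRNAs, it was -0.85 (adjusted p = 0.0502, limma). Of 13 alternatives in processing or fitting, 9 kept the call and 4 lost it. Among those that kept it, the replicate number as a block gave -0.88 (adjusted p = 0.00524, limma). The methods' t-test (adjusted p = 0.0655) and a fixed slide term (-0.81, adjusted p = 0.119) left the call short of the threshold. So did normexp with centring of each array on its median log ratio (-0.75, adjusted p = 0.0896) and the Arntl term described further below. Of the other 3 Lpin1 probes, 2 lost the call in 15 of the 24 fits and the third in 4.

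Lpin1 varied between mice of the same group more than nearly all other mRNAs. Its SD within groups, pooled over the groups, was 0.77 and ranked 131 of 21781 probes, with the median probe at 0.18. On the linear scale the highest baseline mouse had 8.08 times the Lpin1 mRNA of the lowest, and in the quercetin group this range was 5.32-fold. Part of this spread went with the replicate numbers of the labels. Baseline mice 1 to 4 had levels of 12.45 to 13.55, and baseline mice 5 to 12 had 14.09 to 15.46. In the control group mouse 1 was lowest and mouse 12 highest, whereas in the quercetin group mouse 12 was lowest and mouse 11 highest. The genes whose level followed that of Lpin1 most closely over the 36 mice, after subtraction of the group means, were Klf13, a Krüppel-like transcription factor (r = 0.77), Gpt2, a mitochondrial alanine aminotransferase (r = 0.75), and AA986860 (r = 0.73). The most opposed were Clock, a core transcription factor of the circadian clock (r = -0.68), Ddc (r = -0.66) and Commd7 (r = -0.65). They were ranked among 13032 genes on the same arrays, and each is given as a description.

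Lpin2 lies on chr17, and its 4 probes in the processed table did not give 1 picture. Probe A_51_P370438, the only one designed on the RefSeq mRNA, maps to chr17:71151340-71151706 (mm8), a span of 367 bases against the 60 bases of the other 3. The brightest, A_51_P256323 at chr17:71154515-71154574, was designed on a cDNA and lies 3' of it on the same strand. The other 2, A_51_P483081 at chr17:71111784-71111843 and A_52_P397786 at chr17:71120079-71120138, were also designed on cDNAs and lie upstream. No gene annotation of build mm8 was used here, so exons and introns under these probes are not given. The RefSeq probe read 16.7 to 24.2 times the local background in the group means, the brightest 668 to 970 times and the 2 upstream probes 4.85 to 9.30 times.

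By the RefSeq probe, the level of Lpin2 ran from 9.74 over a median of 10.04 to 10.66 in the baseline mice. In the control mice it ran from 8.98 over a median of 9.57 to 10.06. In the quercetin mice it ran from 9.71 over a median of 10.12 to 10.61. All 12 quercetin mice lay above the control median and 7 of them above the highest control mouse, whereas 8 of 12 control mice lay below the lowest baseline mouse.

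The mean Lpin2 level of the control group by this probe, 9.53 ± 0.35 (SD, n = 12), was lower than that of the baseline group, 10.10 ± 0.33 (SD, n = 12). The log2 fold change was -0.57 (SE 0.13, adjusted p = 0.00256, limma), or 1.48-fold lower. The quercetin group had a mean of 10.10 ± 0.28 (SD, n = 12), which was 0.56 above the control group (SE 0.12, adjusted p = 0.0111, limma), or 1.48-fold higher. Both differences share the control mice, so they are not independent of each other. From the baseline group the quercetin group differed by -0.0057 (SE 0.12, 95% CI -0.24 to 0.23, adjusted p = 0.983). Within slides, the quercetin mice were higher than the control mice on 8 of 9 slides, with a median difference of 0.46, and the control mice lower than the baseline mice on 8 of 9, with a median of -0.57.

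Both calls of this probe held in each of the 24 fits that left out 1 array, with fold changes of 0.51 to 0.61 for quercetin against control and -0.62 to -0.52 for control against baseline. Without quercetin mouse 2 the difference between the quercetin and the control group was 0.58 (adjusted p = 0.0134, limma), and without control mouse 5 it was 0.54 (adjusted p = 0.0155). That call was lost with normexp and centring of each array on its median log ratio (0.48, adjusted p = 0.180). It was also lost with the Arntl level of the mouse as a covariate (0.35, adjusted p = 0.316). The difference between the control and the baseline group was called under all 13 alternatives of this kind, including Arntl as a covariate (-0.43, adjusted p = 0.0270).

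The brightest Lpin2 probe had a level of 15.42 ± 0.36 at baseline, 15.14 ± 0.35 in the control group and 15.53 ± 0.40 in the quercetin group (SD, n = 12 each). As by the RefSeq probe, the control group had the lowest mean, but neither difference from the control group passed the threshold. The quercetin group lay 0.39 above the control group (SE 0.14, 95% CI 0.10 to 0.68, adjusted p = 0.164, limma), with 10 of 12 mice above the control median. The control group lay -0.28 from the baseline group (SE 0.13, 95% CI -0.56 to -0.01, adjusted p = 0.128). Without quercetin mouse 10, whose 14.56 was the lowest of its group, the quercetin group was 0.48 above the control group (adjusted p = 0.0307). The difference between the control and the baseline group was called after normexp and loess of the scanner intensities (-0.35, adjusted p = 0.0345), with the scanner software's processed signals (-0.36, adjusted p = 0.0345) and as the mean of the 4 probes (-0.32, adjusted p = 0.0276).

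Probes of a gene were also compared with each other. Each pair tested, here and for Agpat1 below, set a probe called in these data against an uncalled one. Such a choice favours a difference, and the adjustment does not correct for it. The difference between the RefSeq and the brightest probe was compared between groups, mouse by mouse. It changed by -0.29 from the baseline to the control group (two-sided permutation test, 100000 resamples, p = 0.00431, adjusted p = 0.0387 over 9 such tests on Lpin2 and Agpat1). From the control to the quercetin group it changed by 0.17 (p = 0.153, adjusted p = 0.229, permutation test). Against the upstream probe A_51_P483081, the RefSeq probe rose by 0.39 more from the control to the quercetin group (permutation test, p = 0.0141, adjusted p = 0.0423). Between mice the 2 probes correlated with r = 0.75, and the 2 upstream probes with r = 0.79 between each other and 0.24 to 0.44 with the former pair. The upstream probes gave 0.17 and 0.10 for quercetin against control and -0.18 and -0.27 for control against baseline, and passed the threshold in neither. A further probe of a lipin 2 cDNA, which carries no gene name and so is not counted among the 24, gave -0.06 (adjusted p = 0.900, limma) and 0.02 (adjusted p = 0.945).

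**Figure D2:**
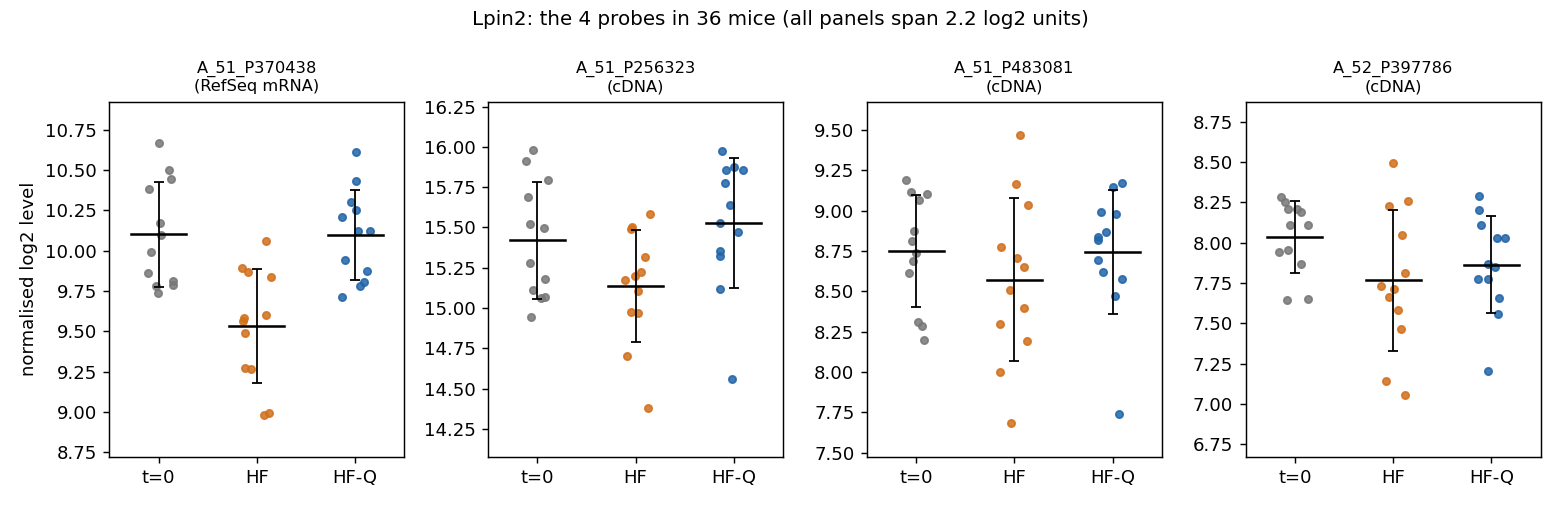
Normalised log2 level (y axis) of the 4 Lpin2 probes in the 3 groups, with 1 point per mouse, the mean as a line and the SD as an error bar (n = 12 per group). In the probe of the RefSeq mRNA 8 of 12 control mice lie below every baseline mouse, and the control mice overlap the other groups more in the 3 cDNA probes.

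Over the 36 mice the genes that followed the brightest Lpin2 probe most closely were Ppp1r3g, a glycogen-targeting subunit of protein phosphatase 1 (r = 0.84), the basic leucine zipper factor Maff (r = 0.76) and 4833420G17Rik (r = 0.75). Zbtb45 (r = -0.79), the adaptor protein gene Traf3 (r = -0.68) and Trim13 (r = -0.65) were the most opposed. Each of these correlations kept its sign within all 3 groups, between 0.71 and 0.91 for Ppp1r3g. Lpin1 and Lpin2 themselves correlated with r = 0.82 in the baseline mice, -0.13 in the control mice and 0.50 in the quercetin mice by their brightest probes, and with r = 0.89, 0.59 and 0.32 when Lpin2 was read by the RefSeq probe (n = 12 each). These are descriptions over mice that share slides and the reference pool.

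The sequences upstream of the transcription starts of Lpin1 and Lpin2 are shown because these 2 genes had the largest differences between groups. By its brightest probe Lpin2 was called in no comparison, whereas Agpat1 was called between the control and the baseline group. They are the 250 bases before the start in RefSeq on GRCm38.p6, chr12:16610967-16611216 (minus strand) for Lpin1 and chr17:71183282-71183531 (plus strand) for the first of the 3 starts listed for Lpin2. The motifs searched, on both strands, were the E-box CACGTG, to which clock factors such as Arntl bind, the D-box TTATGTAA, the nuclear receptor half-site AGGTCA and the sterol response element TCACNCCAC. Matches are in capitals.
Lpin1: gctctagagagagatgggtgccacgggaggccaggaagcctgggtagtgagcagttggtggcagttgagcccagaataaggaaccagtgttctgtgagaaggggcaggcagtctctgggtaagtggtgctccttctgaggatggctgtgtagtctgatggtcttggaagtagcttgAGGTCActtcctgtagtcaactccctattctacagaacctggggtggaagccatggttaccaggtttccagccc
Lpin2: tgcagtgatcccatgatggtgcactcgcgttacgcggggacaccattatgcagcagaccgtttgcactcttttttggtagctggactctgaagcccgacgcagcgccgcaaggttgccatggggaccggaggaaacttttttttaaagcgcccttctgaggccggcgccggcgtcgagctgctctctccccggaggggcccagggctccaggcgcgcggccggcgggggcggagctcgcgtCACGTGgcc
Lpin1 held 1 AGGTCA, at 74 to 69 bases before the start, and Lpin2 held 1 CACGTG, at 9 to 4 bases before the first start. The sequences upstream of the other 2 Lpin2 starts held none of the 4 motifs. Of all 32851 promoters of this length, 14% held AGGTCA, 6.02% CACGTG, 1.05% TCACNCCAC and 0.819% TTATGTAA. Among the other members with an entry, Agpat1 and Gpam each held 1 AGGTCA upstream of 1 of their 2 listed starts. A match is a run of letters, not a measured binding site.

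Lpin3 was dim, with a Cy5 signal of 2.81 to 3.23 times the local background. Its levels of 7.21 ± 0.21, 7.20 ± 0.21 and 7.10 ± 0.25 in the baseline, control and quercetin group (SD, n = 12 each) differed by at most 0.11. The 95% CI of the difference between the quercetin and the control group was -0.28 to 0.09.

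Gpam, the first enzyme of the pathway, was measured by 1 probe at chr19:55124163-55124222 (mm8), at 6.38 to 8.41 times the local background. Its mean was 8.39 ± 0.36 at baseline, 8.61 ± 0.38 in the control group and 8.43 ± 0.41 in the quercetin group (SD, n = 12 each). The control group lay 0.21 above baseline (SE 0.14, 95% CI -0.08 to 0.50, adjusted p = 0.278, limma), and the quercetin group -0.17 from the control group (SE 0.15, 95% CI -0.48 to 0.14, adjusted p = 0.600). A probe of a glycerol-3-phosphate acyltransferase cDNA that has no gene name on the array, and so is not counted among the 24, gave 0.25 (adjusted p = 0.177) and -0.24 (adjusted p = 0.319).

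Like Lpin1 and Lpin2, Gpam spread widely between mice of a group, with a pooled SD of 0.39, above that of 96.0% of the probes. The 3 genes that followed it most closely were Pnpla3, a lipid droplet protein (r = 0.87), Acly, which supplies acetyl-CoA for fatty acid synthesis (r = 0.82), and Fasn, fatty acid synthase (r = 0.82). Nlrp12 (r = -0.80), Ldlrad4 (r = -0.73) and Sun2 (r = -0.70) were the most opposed. Fasn correlated with Gpam at r = 0.75, 0.82 and 0.90 within the baseline, control and quercetin group.

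Of the acyltransferases that make phosphatidic acid, Agpat1 had 2 probes on chr17. The brighter, A_51_P322612 at chr17:34219755-34219904 (mm8), read 7.43 to 8.20 times the local background. It ranged from 8.36 over a median of 8.66 to 8.94 in the baseline mice, from 8.35 over 8.44 to 8.64 in the control mice and from 8.29 over 8.40 to 8.86 in the quercetin mice. All 12 control mice and 11 of 12 quercetin mice lay below the baseline median. The control group was lower than the baseline group by a log2 fold change of -0.18 (SE 0.05, adjusted p = 0.0203, limma), which is 11.7% less on the linear scale, and held this call in all 24 fits that left out 1 array.

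The quercetin group lay -0.19 from baseline by the same probe (SE 0.07, adjusted p = 0.0545, limma), just short of the threshold. Without quercetin mouse 2, the array with most spots above background, this value was -0.23 (adjusted p = 0.0136). The highest Agpat1 level of the quercetin group, 8.86, came from that mouse. Leaving out baseline mouse 1, 3 or 4 or quercetin mouse 8 also brought it past the threshold, at adjusted p of 0.0257 to 0.0476. It was also called after normexp and loess of the scanner intensities (-0.18, adjusted p = 0.00468, limma).

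The second Agpat1 probe, A_52_P200465 at chr17:34221434-34221493, was dimmer and showed differences of -0.0035 for control against baseline and 0.06 for quercetin against baseline. The difference between the 2 probes changed by -0.26 between the baseline and the quercetin group (permutation test, p = 0.00861, adjusted p = 0.0387) and by -0.18 between the baseline and the control group (p = 0.0870, adjusted p = 0.157). The mean of both probes was not called between the control and the baseline group (-0.09, adjusted p = 0.193, limma). Nor was the brighter probe with normexp and centring of each array on its median log ratio (-0.08, adjusted p = 0.437).

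Agpat2, on chr2, had 2 probes that ran in parallel (r = 0.97). By the brighter, at chr2:26418117-26418176 (mm8), the level ran from 11.46 over 11.66 to 12.02 in the baseline mice, from 11.57 over 11.78 to 11.96 in the control mice and from 10.94 over 11.53 to 11.97 in the quercetin mice. The quercetin group reached lower than the others, and 6 of its 12 mice lay below the lowest control mouse. The difference of -0.25 from the control group (SE 0.09, 95% CI -0.43 to -0.07, adjusted p = 0.144, limma) did not pass the threshold. Agpat3, on chr10, differed little between the groups. Its brighter probe had means of 13.86 to 13.89, and its pooled SD of 0.145 was below that of the median probe. The 95% CI of its difference between the quercetin and the control group was -0.16 to 0.11.

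Both diacylglycerol acyltransferases were measured by several probes. Dgat2, on chr7, read 1838 to 2329 times the local background by its brightest probe at chr7:99028897-99028956 (mm8). Its level ran from 16.30 over 16.69 to 17.16 in the baseline mice, from 16.36 over 16.61 to 17.07 in the control mice and from 16.61 over 16.81 to 17.09 in the quercetin mice. Of the 12 quercetin mice 11 lay above the control median and 11 above the baseline median. The difference of 0.18 from the control group (SE 0.07, 95% CI 0.04 to 0.32, adjusted p = 0.169, limma) did not pass the threshold, and the other 2 probes gave 0.09 and 0.14. It was called with quantile normalisation between arrays (0.22, adjusted p = 0.0307) and without control mouse 7 (0.22, adjusted p = 0.0449).

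Dgat1, on chr15, had the narrowest spread between mice among the 10 genes, with a pooled SD of 0.125 and 0.129 by its 2 probes. Its brighter probe had means of 9.53 ± 0.17, 9.43 ± 0.10 and 9.38 ± 0.10 in the baseline, control and quercetin group (SD, n = 12 each). The quercetin group lay -0.16 from baseline (SE 0.06, adjusted p = 0.0768, limma), with 11 of 12 mice below the baseline median. It was called without baseline mouse 4 (-0.18, adjusted p = 0.0387) and without baseline mouse 9 (-0.19, adjusted p = 0.0140). The scanner software's processed signals (-0.20, adjusted p = 0.0326, limma) and 1 fit of all 36 arrays (adjusted p = 0.0498) also gave a call. By the other probe all 12 control mice lay below the baseline median (-0.15, adjusted p = 0.0559, limma). This difference was called in 3 of 13 alternatives. Among them were the methods' t-test (adjusted p = 0.0480) and the processed signals (-0.18, adjusted p = 0.0261, limma). By the brighter probe the control group lay -0.11 from baseline (adjusted p = 0.193, limma), and -0.14 without baseline mouse 9, which was called (adjusted p = 0.0483).

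Mogat1, on chr1, was dim, with 2.78 to 3.89 times the local background by the 1 probe in the processed table. The quercetin mice ran from 6.99 over 7.47 to 7.96, the control mice from 7.04 over 7.17 to 7.65 and the baseline mice from 6.95 over 7.22 to 7.83. The quercetin group lay 0.22 above the control group (SE 0.09, 95% CI 0.03 to 0.41, adjusted p = 0.230, limma), and 0.18 above it without quercetin mouse 2 (adjusted p = 0.352), which had the highest value. The 2 Mogat1 probes outside the processed table read 1.38 to 2.81 times the local background. In a fit of all probes from the scanner intensities they gave 0.08 (adjusted p = 0.598, limma) and 0.0053 (adjusted p = 0.982) for quercetin against control.

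**Figure D3:**
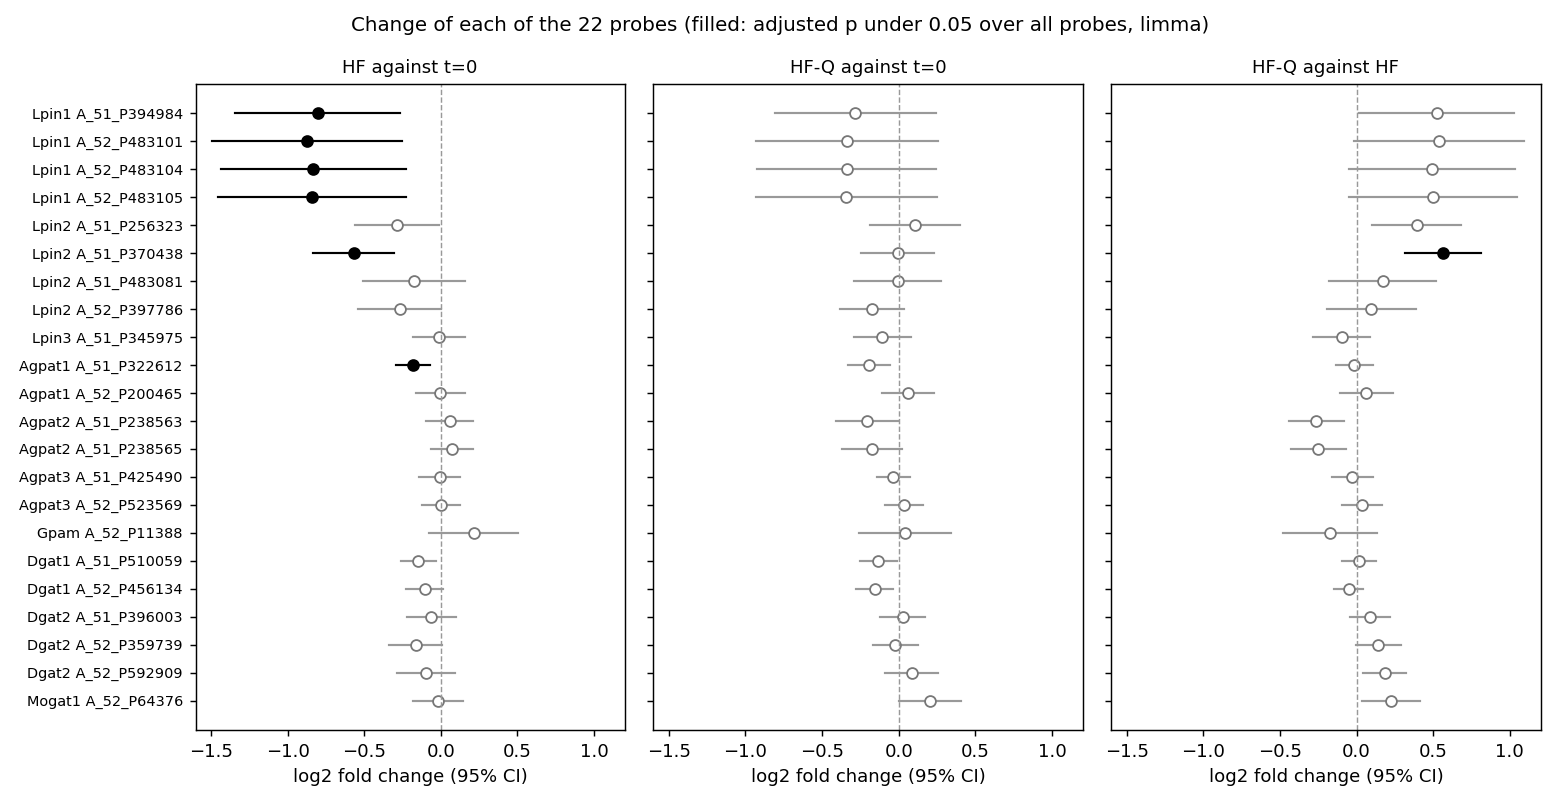
Log2 fold change with its 95% CI (x axis) for each of the 22 probes in the 3 comparisons, from limma fits of 24 arrays each, with filled points for an adjusted p under 0.05. The 4 Lpin1 probes sit at -0.80 to -0.88 for control against baseline, and 1 Lpin2 probe is filled in both comparisons with the control group.

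Clock genes also differed in these comparisons. Of 7 clock genes in the processed table, 4 were called for quercetin against control, beside 2.36% of all probes. Arntl was lower (-1.0, SE 0.19, adjusted p = 0.00340, limma) and Clock was lower (-0.46, SE 0.09, adjusted p = 0.00437), whereas Dbp, a clock output factor, was higher (0.92, SE 0.19, adjusted p = 0.00741) and so was Per3 (0.42, SE 0.09, adjusted p = 0.0134). Between the control and the baseline group only Per3 passed the threshold (-0.28, SE 0.10, adjusted p = 0.0379), with Arntl at 0.61 (SE 0.24, adjusted p = 0.0695). Between the quercetin and the baseline group limma called 0 of the 7, with 1 at an unadjusted p under 0.05 and 0 by the methods' t-test. Arntl ranged from 7.10 to 9.45 in the baseline mice, from 7.80 to 9.23 in the control mice and from 6.90 to 8.61 in the quercetin mice. The time of day of the dissections is not given in the sources used here.

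With the Arntl level of each mouse as a covariate, Lpin1 was -0.47 in the control against the baseline group (adjusted p = 0.266, limma) and 0.30 in the quercetin against the control group (adjusted p = 0.766). Agpat1 was -0.17 in the control against the baseline group (adjusted p = 0.0593). Over all probes, this term left 1 call between the quercetin and the control group. Because Arntl itself differed between these groups, the term also removes part of any difference between them.

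Within each group, the levels of the 10 genes were set against Arntl in 30 relations (n = 12 mice, permutation tests with 100000 resamples), and 0 passed an adjusted p of 0.05. The closest were in the baseline mice. Dgat2 had r = -0.80 (p = 0.00241, adjusted p = 0.0718) and rho = -0.81 (p = 0.00210, adjusted p = 0.0630), and r = -0.71 without the 2 mice of the most extreme Arntl. Lpin1 had r = -0.75 (p = 0.00479, adjusted p = 0.0718, permutation test) and rho = -0.71 (p = 0.0118, adjusted p = 0.177), and r = -0.72 without 2 mice. In the control and the quercetin group Lpin1 had r = -0.10 and -0.23 and Dgat2 r = -0.41 and 0.29. Agpat2 had a positive r in all 3 groups, 0.65, 0.50 and 0.59 (adjusted p = 0.187, 0.268 and 0.201, permutation tests), with rho of 0.65, 0.66 and 0.57 (adjusted p = 0.189 for each). A slide held only 1 or 2 mice of a group, too few for values within slides.

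**Figure D4:**
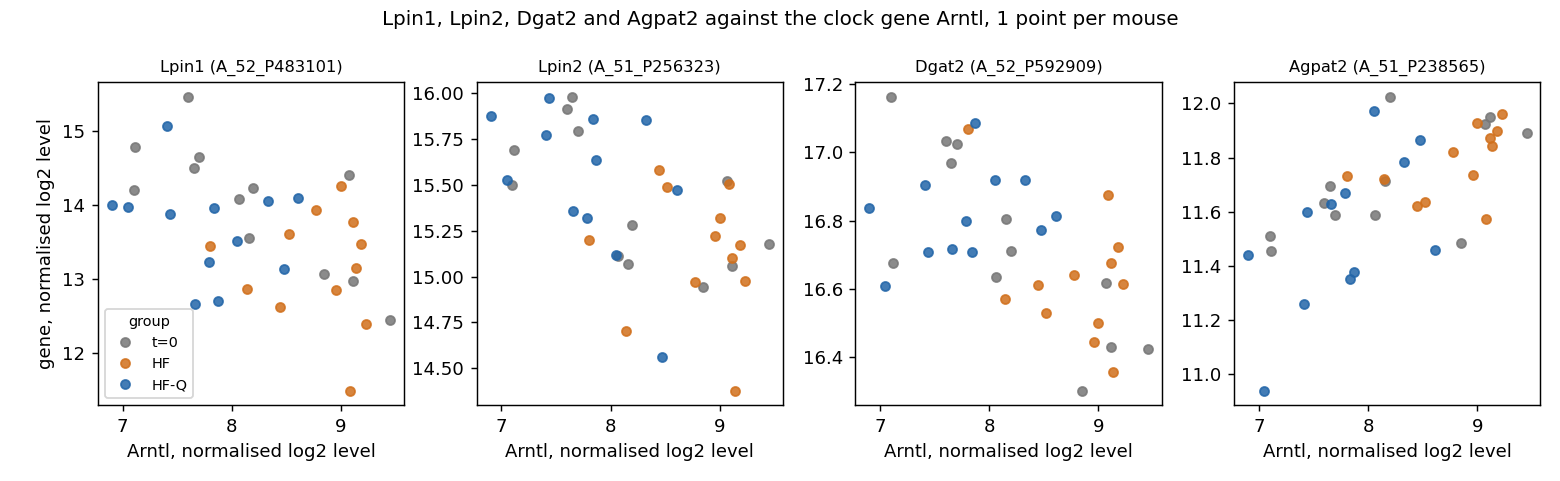
Normalised log2 level of Lpin1, Lpin2, Dgat2 and Agpat2 by their brightest probes (y axes) against that of Arntl (x axis), with 1 point per mouse and colours for the 3 groups. In the baseline mice Lpin1 and Dgat2 fall as Arntl rises (r = -0.75 and -0.80), and in the control mice Lpin1 does not (r = -0.10).

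Some markers of bile duct cells also differed between the groups. Of 4 such genes, all measured, 3 were higher in the control than in the baseline group, where 21.3% of all probes were called in either direction. These were Krt19, Krt7 and Sox9 (0.42, 0.29 and 0.64, adjusted p = 0.0269, 0.0220 and 0.00114, limma). Epcam was not called there (0.16, adjusted p = 0.189). In the quercetin mice Sox9 was lower than in the control mice (-0.60, adjusted p = 0.000530). Krt19, Krt7 and Epcam were short of the threshold in that comparison (-0.30, -0.17 and -0.04, adjusted p = 0.274, 0.508 and 0.890). For quercetin against baseline 0 of the 4 passed it. The mean level of the 4 genes ranged from 7.70 to 8.38 in the baseline, 8.18 to 8.90 in the control and 7.94 to 8.37 in the quercetin mice. The part of these cells in the results of Lpin1 and Lpin2 was not tested. None of 5 Kupffer cell markers and none of 4 stellate cell markers was called between any groups (with 3 and 4 Kupffer cell markers and 0 stellate cell markers at an unadjusted p under 0.05 against baseline, and none called by the methods' t-test). Against baseline, 1 of 6 hepatocyte markers was lower in the control mice, as were 2 in the quercetin mice. Of 4 endothelial markers Pecam1 was lower in the control group than at baseline (-0.34) and higher in the quercetin than in the control group (0.38). Of 2 measured erythroid markers, Hba-a1, an alpha globin gene, was higher than at baseline in the control mice (0.93, adjusted p = 0.000308, limma) and in the quercetin mice (1.21, adjusted p = 4.06e-07). Alas2, of heme synthesis, was lower in the quercetin mice than at baseline (-0.26, adjusted p = 0.0172). Of 5 adipocyte markers only Cfd was in the processed table, at 6.21 to 10.73.

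The rest of the pathway was described by 6 lists with 47 genes, of which 44 were measured. Between the quercetin and the control group 0 of 44 were called, with 14 at an unadjusted p under 0.05 and 0 by the methods' t-test. Between the control and the baseline group 10 were called, 4 higher and 6 lower, beside 21.3% of all probes, and 8 by the methods' t-test. For quercetin against baseline 7 were called, 5 higher and 2 lower, beside 11.9% of all probes, and 4 by the methods' t-test. The median log2 fold change of the 44 genes was 0.026, -0.009 and 0.002.

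Among the other acyltransferases, 1 of 9 was called lower in the control group. Gpat3, an acyltransferase of the endoplasmic reticulum that catalyses the same step as Gpam, fell by 0.68 on the log2 scale from baseline to the control group (SE 0.10, adjusted p = 2.40e-05, limma) and by 0.46 to the quercetin group (SE 0.15, adjusted p = 0.0435). Its mean level was 8.30 in the baseline mice, 7.62 in the control mice and 7.84 in the quercetin mice. Gnpat, which starts ether lipid synthesis, was lower in the quercetin group than at baseline (-0.15, adjusted p = 0.0394). Of 5 lipid phosphate phosphatases, which also act on phosphatidic acid, Plpp5 was higher in the quercetin group than at baseline (0.34, adjusted p = 0.0446).

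Of 5 measured genes that supply glycerol 3-phosphate, 3 were called in the control against the baseline group, beside 21.3% of all probes. The glycerol-3-phosphate dehydrogenases Gpd1 and Gpd2 were higher (0.29 and 0.31, adjusted p = 0.0262 and 0.000442, limma), and the glycerol channel Aqp9 was lower (-0.30, adjusted p = 0.0112). Gpd1 was also higher in the quercetin group than at baseline (0.27, adjusted p = 0.0485). Of 7 measured fatty acid activating enzymes, Acsl3 was higher in the control group (0.49, adjusted p = 0.0172) and Slc27a4 lower (-0.16, adjusted p = 0.0483).

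Of 8 measured enzymes downstream of phosphatidic acid or diacylglycerol, Pgs1, of cardiolipin synthesis, was higher in the control than in the baseline group (0.42, adjusted p = 0.0318, limma). Dgka, a diacylglycerol kinase, was lower (-0.19, adjusted p = 0.0151). In the quercetin against the baseline group Cds2 and Cept1, which lead into phospholipids, were higher (0.19 and 0.27, adjusted p = 0.0313 and 0.0252). Among the 10 partners and transcription factors named with lipins, the coactivators Ppargc1a and Ppargc1b were lower in the control than in the baseline group (-0.43 and -0.62, adjusted p = 0.0447 and 0.00720). In the quercetin group they lay 0.24 and 0.34 above the control group, neither past the threshold (adjusted p = 0.464 and 0.271). Pparg was higher in the quercetin group than at baseline (0.35, adjusted p = 0.00680).

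Among the members themselves, the highest correlations over the 36 mice, after subtraction of the group means, were Agpat1 with Mogat1 (r = 0.54) and Agpat2 with Gpam (r = 0.51). The lowest were Agpat3 with Gpam (r = -0.48) and Lpin2 with Agpat2 (r = -0.39). Mogat1 and the brighter Agpat1 probe both had their highest baseline value in baseline mouse 2 and their highest quercetin value in quercetin mouse 2. The array of the latter had 96.7% of its spots well above background in Cy5, and r without it was not computed.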

How the data were processed

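Per the file headers and labels, each array was read with Agilent Feature Extraction 10.5.1.1, which gives Cy5 and Cy3 intensities and background flags for each spot, with probe positions on build mm8. The deposited processed table of the authors holds log2 values for 23256 of the 43379 non-control spots. It matched log2 Cy5 minus log2 Cy3 plus the mean log2 Cy3 of the spot, as computed from the scanner intensities, with a median absolute difference of 0.0192 and r of at least 0.99989 on every array, and every array has a median of 8.96. No background was subtracted, so folds of dim probes may be understated. Per the methods, spots counted as expressed when their average signal in Cy5 and Cy3 was 2 times above background. The processed table also holds probes below this in Cy3, such as that of Lpin3 at 1.87 times the local background in the baseline group.

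Gene names on the array were updated by accession (24375 of 41174 probes) or by other symbol (8727), and 8072 had no current symbol. Spots of a probe were averaged. Each pair of groups was fitted with limma 3.58.1 (R 4.3.3) over 21781 probes and 24 arrays, with Benjamini-Hochberg adjustment and a threshold of 0.05. The probe with the highest mean signal stood for a gene, and all probes were described. Permutation tests used 100000 resamples. The number of arrays, 12 a group, limits the precision. The methods' t-test was run on the same values. The fit was tested on simulated data.

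The alternatives were normexp (offset 50) of the scanner intensities with loess or with median centring, the processed signals of the scanner software, quantile normalisation, a filter at 2 times the background, all probes on the array, single spots, the mean of a gene's probes, all 36 arrays in 1 fit, slide as a fixed or random block, the replicate number as a block, Arntl as a covariate, and each array left out. The last was chosen after seeing the data, apart from quercetin mouse 2. Over all probes the replicate numbers of the labels gave little sign of pairing, as deviations of same-numbered mice correlated above 0.1 in 3 or 4 of 12 pairs. This does not hold for every gene. For Lpin1 in control against baseline, the replicate number as a block lowered the SE from 0.30 to 0.19 (adjusted p = 0.00524, limma). The genes named were all members, the pathway genes called in any comparison, and the genes most and least correlated with the 3 members that varied most between mice. Pecam1, the bile duct and erythroid markers and the clock genes were named after their values were seen. The members and lists were chosen with earlier results of these data known. Promoter sequences are from RefSeq on GRCm38.p6. Dgat1 and Dgat2 had no entry.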

Additional observations from a re-analysis of the deposited data

How the results depend on the processing

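The number of probes called for quercetin against control was 513, and fell to 77 with median centring, to 210 with slide as a fixed block and to 1 with Arntl as a covariate. Between the quercetin and the baseline group it was 2596 and fell to 396 with median centring. Leaving out 1 array gave 358 to 614, 3988 to 5235 and 1971 to 3200 calls for quercetin against control, control against baseline and quercetin against baseline. Of the 10 genes, 0 were called for quercetin against control, 1 with quantile normalisation, and 0 to 1 with an array left out. Between the control and the baseline group 2 were called, 0 with median centring, 1 by the methods' t-test, 1 with slide as a fixed block, 0 with Arntl as a covariate, 3 each with loess and with the processed signals, which added Lpin2, and 1 to 2 with an array left out. Between the quercetin and the baseline group 0 were called, 2 with the processed signals and with all 36 arrays in 1 fit, and 1 each with loess, quantile normalisation, the filter on dim probes, all probes and without quercetin mouse 2, and 0 to 2 with an array left out. With the replicate number as a block, 360, 4636 and 2372 probes and 0, 2 and 1 of the 10 genes were called, the last being Agpat1 (-0.19, adjusted p = 0.0276, limma).

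Of the fold changes of the 10 genes under these alternatives, leaving out single arrays apart, 374 kept their direction and side of the threshold, 13 passed it, 7 lost it and 23 changed sign, none of them called. For quercetin against control these were Agpat3 at 0.0054 with loess and with all probes, 0.005 with the processed signals and 0.0037 as the mean of its probes, Agpat1 at 0.0136 with slide as a fixed block, 0.1085 with Arntl as a covariate and 0.0248 as the mean of its probes, and Gpam at 0.0845 with Arntl. For control against baseline they were Mogat1 at 0.0571 with loess and with all probes, 0.0747 with median centring, 0.0751 with the processed signals and 0.0241 with quantile normalisation, Lpin3 at 0.0379 with median centring and 0.0423 with quantile normalisation, Agpat3 at 0.118, Dgat1 at 0.0052 and Dgat2 at 0.0273 with median centring, and Agpat2 at -0.0211 and Dgat2 at 0.0541 with Arntl. For quercetin against baseline they were Agpat3 at 0.0773 with median centring and Lpin2 at -0.0129 with Arntl and -0.0194 as the mean of its probes. The cause of these changes was not tested. The filter on dim probes left no value for Lpin3 in either comparison with baseline, nor for Mogat1 in control against baseline. The probes of Lpin3 and Mogat1 were dim, at 2.78 to 3.89 times the local background, and without background subtraction their fold changes may be understated. For quercetin against control Mogat1 was 0.22, against 0.06 with median centring and 0.24 with the processed signals. Lpin3 was -0.10, against -0.14 and -0.29.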

Other observations

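Of the 2 Mogat1 probes outside the processed table, A_51_P112151 was well above background in Cy5 on 10 of 12 baseline, 11 of 12 control and 12 of 12 quercetin arrays. The other, A_52_P364021, was so on 1, 0 and 2 of 12 arrays. In the fit of all probes they gave -0.01 (adjusted p = 0.924, limma) and -0.04 (adjusted p = 0.739) for control against baseline.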
